A study of Mus musculus with 6 samples.

Results

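The genes described here are 9 transcription factor genes of the ventral embryonic forebrain: Dlx1, Dlx2, Dlx5, Dlx6, Nkx2-1, Lhx6, Gsx1, Isl1 and Sp8. They were chosen by symbol with the knockdown and control intensities of these arrays already known, so their own difference between the groups is given as a description, with no test. They carry 10 of the array's 23472 gene probes and are 9 of 19320 named genes, with a pair of probes for Dlx5 and 1 probe for each of the others. RNA came from cells that the labels call oligodendrocyte precursor cells, dividing glia whose progeny wrap axons in myelin, derived from forebrains of Jcl:ICR mouse embryos at E15.5. Both groups were kept in FGF2 and PDGF-AA, mitogens that hold these precursors in division. Of the 6 samples, 3 had received a Chd7 knockdown retrovirus (Chd7 KD) and 3 a control retrovirus (Control), and all were harvested 3 days after infection. The labels give neither the knockdown sequence, nor the share of cells infected, nor whether replicates were separate cultures, so each p-value reflects the scatter among these arrays alone, and that scatter may be technical.

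In the embryonic mouse forebrain the ganglionic eminences, ridges on the ventral side, produce the GABAergic interneurons that migrate into the cortex, the projection neurons of the striatum and an early wave of oligodendrocyte precursors. Homeodomain factors of the DLX family are made there in progenitors and young neurons, and in mice Dlx1 and Dlx2 drive interneuron fate and restrain Olig2 and the oligodendrocyte fate. Gsx1 and its paralog Gsx2 act in ventral progenitors ahead of the DLX genes, Nkx2-1 sets up the medial ridge and turns on Lhx6 in its interneurons, Isl1 marks striatal and cholinergic neurons, and Sp8 acts in interneurons of the caudal ridge and the olfactory bulb. The DLX genes lie in tail-to-tail pairs, Dlx1 beside Dlx2 and Dlx5 beside Dlx6.

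The promoters of Dlx1 and Dlx2 are shown because these were the members that differed most between the groups, both being higher in Chd7 KD. Each line holds the 250 bases before the annotated start in RefSeq (GRCm38.p6), at chr2:71529195-71529444 on the plus strand for Dlx1 and at chr2:71546755-71547004 on the minus strand for Dlx2. Capitals mark matches to any of 5 motifs searched on both strands. These were the core read by many homeodomain proteins (TAATTA), an E-box bound by helix-loop-helix factors (CACGTG), the box bound by the NF-Y factor (CCAAT), the GC box bound by SP factors (GGGCGG) and the TATA box of core promoters (TATAAA).
Dlx1: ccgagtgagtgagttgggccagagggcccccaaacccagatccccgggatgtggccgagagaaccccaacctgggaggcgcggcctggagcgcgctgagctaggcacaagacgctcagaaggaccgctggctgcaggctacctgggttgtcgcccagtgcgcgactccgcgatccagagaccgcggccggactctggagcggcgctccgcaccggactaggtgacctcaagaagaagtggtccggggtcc
Dlx2: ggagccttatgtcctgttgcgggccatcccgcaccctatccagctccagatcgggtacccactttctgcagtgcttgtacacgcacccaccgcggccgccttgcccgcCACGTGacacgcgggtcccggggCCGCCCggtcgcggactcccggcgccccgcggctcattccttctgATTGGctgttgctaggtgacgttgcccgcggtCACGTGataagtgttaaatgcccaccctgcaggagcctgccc

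The Dlx1 window held none of the 5 motifs. In the Dlx2 window CACGTG stood 142 to 137 and again 42 to 37 bases before the start, GGGCGG read as its reverse complement stood 119 to 114 bases before it, and CCAAT read as its reverse complement stood 74 to 70 bases before it, with no overlap among them. Over all 32851 such windows, the motif CACGTG was found in 6.02%, the GC box in 32.7%, the CCAAT box in 33.8%, the TATA box in 12.4% and the homeodomain core in 4.84%. The windows were rich in G and C, at 68.0% for Dlx1 and 66.4% for Dlx2 against a median of 52.4%. For 7 member genes the table held 11 windows, and TAATTA occurred in 1 of them, at Sp8. A match to letters is a description and shows no binding.

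The labels of the 2 groups were checked first on the targeted gene. Chd7, an ATP-dependent chromatin remodeller, read a log2 intensity of 8.54, 8.44 and 8.48 on Chd7 KD replicates 1 to 3, against 9.44, 9.20 and 9.47 on Control replicates 1 to 3 (log2 fold change -0.88, SE 0.0866, adjusted p = 0.00112 in limma). On this scale that probe stood at 54.3% of its control level, and a dimmer Chd7 probe (log2 fold change -0.48, SE 0.0671) at 71.5%. An offset was added before the log, so these are not shares of the signal and understate the drop, more so for the dimmer probe. In the authors' processed values, on a linear scale, the brighter probe read 253, 219 and 223 in Chd7 KD and 490, 409 and 527 in Control. There the dimmer probe read 74, 74 and 66 in Chd7 KD and 132, 110 and 114 in Control. The median raw spot signal per array was 83.4 to 89.4, the blank spots averaged 58.9 to 61.9, and 87.0% to 89.8% of gene probes exceeded the detection limit, set at the blank mean plus 2 SD. With 3 arrays a group, precision is limited by their number. All 12 precursor markers on the array were detected, led by Olig1 and Olig2, and all 13 neuronal markers were detected too, led by Gap43 and Elavl3.

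Dlx1, which acts in ventral progenitors and later in mature interneurons, had a log2 intensity of 7.10, 7.16 and 7.27 on Chd7 KD replicates 1 to 3, against 6.62, 6.91 and 6.84 on Control replicates 1 to 3. Each knockdown array lay above each control array, and Control replicate 1 was the lowest of the 6. The group means were 7.18 ± 0.088 in Chd7 KD and 6.79 ± 0.15 in Control (SD, n = 3 each), a log2 fold change of 0.38 (SE 0.0787). In the authors' processed values, which keep a linear scale, Dlx1 read 67, 68 and 75 in Chd7 KD and 36, 53 and 48 in Control, a ratio of means of 1.53.

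Dlx2, its neighbour and partner in interneuron specification, read 6.64, 6.64 and 6.63 on Chd7 KD replicates 1 to 3, against 6.31, 6.37 and 6.46 on Control replicates 1 to 3. The groups again did not overlap, and the knockdown arrays lay closer together than the controls did. The means were 6.64 ± 0.0034 in Chd7 KD and 6.38 ± 0.076 in Control (SD, n = 3 each), a log2 fold change of 0.25 (SE 0.0456). The authors' values were 37, 36 and 35 in Chd7 KD and 21, 24 and 27 in Control, a ratio of means of 1.5. Fold changes on the normalized scale are smaller than these ratios for dim probes because an offset of 50 was added before the log.

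**Figure D1:**
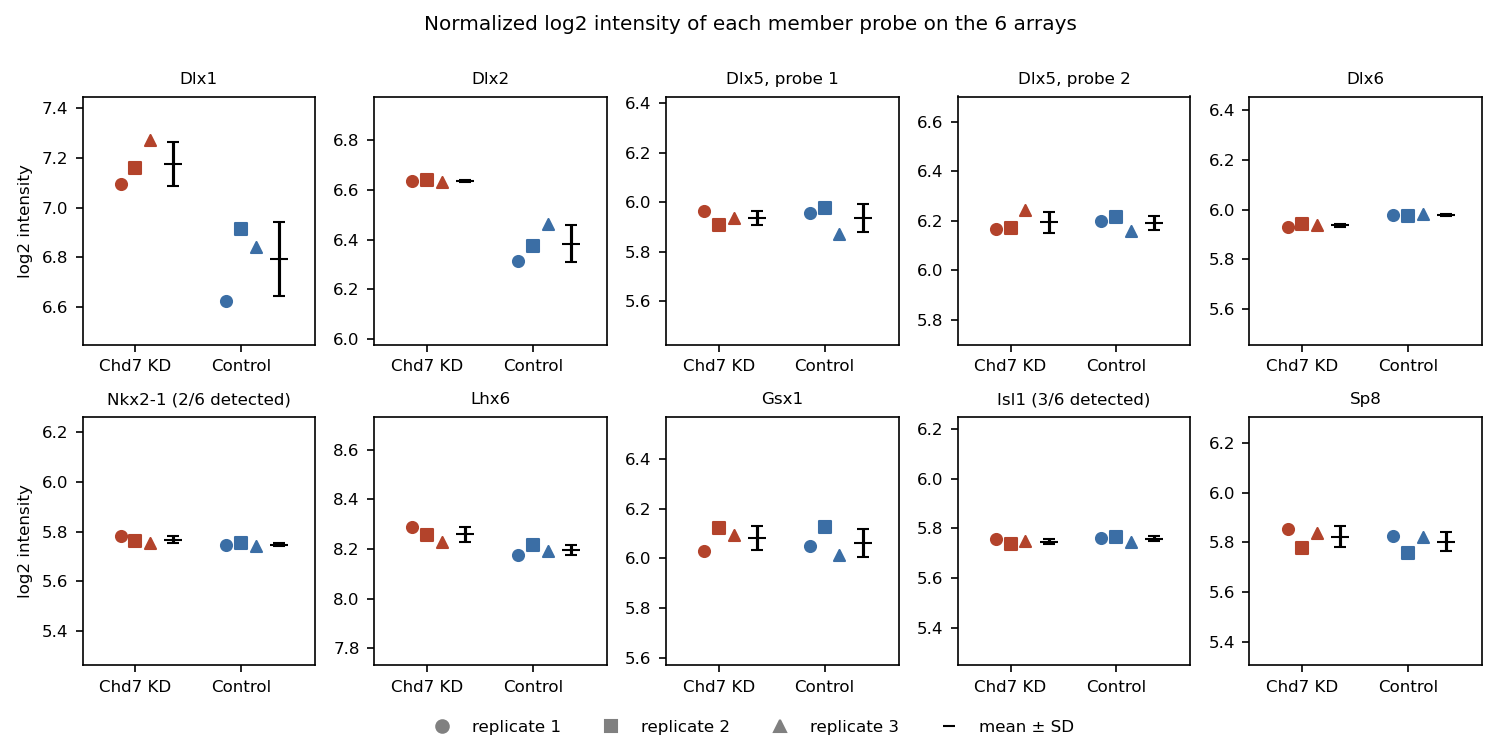
Normalized log2 intensity of the 10 member probes on each array, Chd7 KD at the left (red) and Control at the right (blue), with replicates as separate symbols, the mean and SD of 3 arrays beside them, and the same axis span of 1 log2 unit in each panel. Dlx1 and Dlx2 stand apart by 0.38 and 0.25 between the group means, while the other 7 tested probes differ by at most 0.06. Nkx2-1 is shown by its levels alone.

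The second DLX pair lay near 0. Dlx5, which follows Dlx1 and Dlx2 in the differentiation of interneurons, read 6.17, 6.17 and 6.24 in Chd7 KD and 6.20, 6.22 and 6.16 in Control on the brighter of its probes. Its log2 fold change there was 0.0035 (SE 0.0329), and the groups overlapped. The other Dlx5 probe read 5.97, 5.91 and 5.94 in Chd7 KD and 5.96, 5.98 and 5.87 in Control (log2 fold change 0.0013, SE 0.0294), so both probes lay near 0.

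Dlx6, which shares enhancers with Dlx5, read 5.93, 5.94 and 5.94 in Chd7 KD, against 5.98, 5.97 and 5.98 in Control. All knockdown arrays were lower, by little: the log2 fold change was -0.04 (SE 0.0188). In the authors' values this was 7 on each knockdown array and 8 on each control array, where 1 unit is the rounding step.

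Lhx6, the LIM-homeodomain factor of interneurons from the medial ridge, was well above the detection limit on every array. It read 8.29, 8.26 and 8.23 in Chd7 KD and 8.18, 8.22 and 8.19 in Control, with a log2 fold change of 0.06 (SE 0.0586). The knockdown arrays lay just above the controls without overlap, but in the authors' values the groups overlapped, with 204, 189 and 180 in Chd7 KD and 182, 189 and 193 in Control. Nkx2-1, which turns on Lhx6 in the medial ridge, had raw signals of 64.4, 62.4 and 63.7 in Chd7 KD and 60.6, 60.7 and 62.5 in Control. It exceeded the detection limit on 1 array of each group and was not tested, so it has no fold change here. Raw signals include the background of each array. The blank spots averaged 61.3, 60.5 and 61.9 in Chd7 KD and 59.2, 58.9 and 61.1 in Control.

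Gsx1, the factor of ventral progenitors, read 6.03, 6.12 and 6.10 in Chd7 KD and 6.05, 6.13 and 6.02 in Control (log2 fold change 0.02, SE 0.0357). Sp8 read 5.85, 5.78 and 5.84 in Chd7 KD and 5.83, 5.76 and 5.82 in Control (log2 fold change 0.02, SE 0.0251). Both genes overlapped between the groups, and the signal of Sp8 was close to the limit on every array. Isl1 exceeded the limit on 1 knockdown array and 2 control arrays, and its groups overlapped (log2 fold change -0.01, SE 0.0132). Its raw signals, which include array background, were 63.3, 61.5 and 63.5 in Chd7 KD and 61.3, 61.1 and 62.6 in Control.

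Of the 9 members, 8 had enough signal to enter the fit across genes, and 4 of these had groups that did not overlap, 3 higher and 1 lower in Chd7 KD, against 29.9% of all 17390 genes tested. Since the members were proposed from this contrast, nothing is read from that count. The median log2 fold change was 0.02 over the 8 members and 0.00077 over all genes tested. Slopes between scanner gains in the file headers split the arrays into 2 sets, each with 2 arrays of one condition and 1 of the other, and within them Dlx1 differed by 0.39 and 0.34 and Dlx2 by 0.30 and 0.17.

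**Figure D2:**
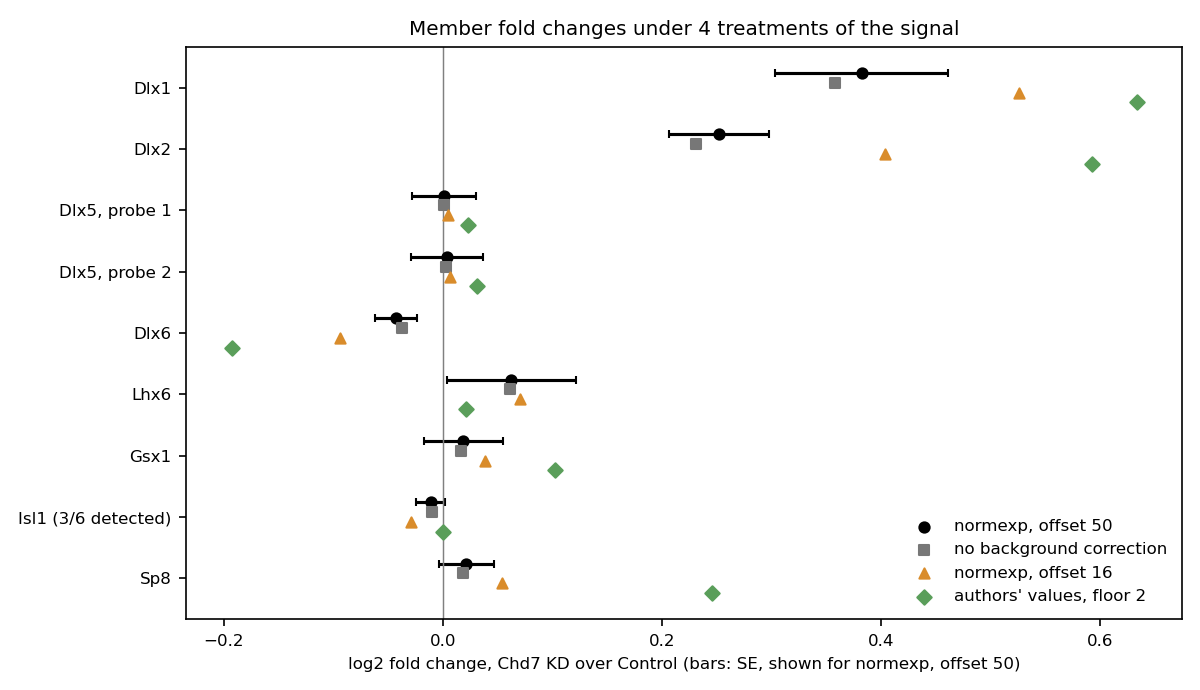
Log2 fold change of Chd7 KD over Control for each of the 9 tested member probes under 4 treatments of the signal, with the SE drawn for the values quoted in the text. Dlx1 (0.36 to 0.63) and Dlx2 (0.23 to 0.59) lie to the right of 0 under each, and the authors' values, floored at 2, give the largest of them.

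For the lists of other genes below, a gene passed at an adjusted p below 0.05 in limma. Across all genes tested 9.65% passed, 4.49% higher and 5.16% lower (781 and 897 genes), and in the authors' values 907 passed, 247 higher and 660 lower. Effector genes of GABAergic interneurons, not chosen as targets of these factors, were looked at first. In a list of 22 genes of GABA handling, migration and interneuron subtypes 20 had a test, of which 2 fell, 18 did not pass and none rose (median log2 fold change 0.02). Gad1 and Gad2, which make GABA and are DLX targets in mouse, had log2 fold changes of 0.13 and -0.0081. Gad2 was dim, at a mean log2 intensity of 5.90 in Chd7 KD and 5.91 in Control, so a difference may not have been detectable. Slc32a1, which loads GABA into vesicles, had a log2 fold change of -0.02. The interneuron subtype genes Sst, Pvalb and Calb2 had log2 fold changes of -0.07, 0.03 and 0.01, and the migration receptor genes Cxcr4 and Erbb4 each had one of 0.07. None of these passed (adjusted p 0.315 to 0.916 in limma).

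Kit, the receptor for stem cell factor, fell in Chd7 KD. Its log2 intensity was 6.05, 6.06 and 5.96 in Chd7 KD and 6.67, 6.49 and 6.76 in Control, without overlap (log2 fold change -0.62, SE 0.0642, adjusted p = 0.00139 in limma). Npy, the neuropeptide of a subset of interneurons, also fell, near the dim end of the scale: 5.82, 5.83 and 5.84 in Chd7 KD and 5.89, 5.97 and 5.96 in Control (log2 fold change -0.11, SE 0.0224, adjusted p = 0.019). In the authors' values the log2 fold changes of Kit and Npy were -1.87 and -0.80, and with an offset of 16 they were -1.08 and -0.25. The Npy call was lost without Chd7 KD replicates 1 or 2 or Control replicates 2 or 3 (adjusted p up to 0.0774) and without the variance trend (0.0658). The next smallest p-values in this list were those of Abat, which breaks GABA down (log2 fold change 0.09, adjusted p = 0.102), and the chemokine receptor gene Ackr3 (0.22, adjusted p = 0.176).

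Ventral progenitor factors outside the 9 members were lower in Chd7 KD where they passed. Of 16 with a test, 3 fell, 13 did not pass and none rose, with a median of -0.05 against 0.00077 over all genes. The share that passed was 18.8%, against 9.65% over all genes. Since this list was chosen with earlier results of these data known, nothing is read from that share. The 3 were Gsx2, Olig2 and Meis2. Of these Olig2 is also a precursor marker, and only Gsx2 passed in the authors' values. Gsx2, paralog of Gsx1, read 6.06, 5.98 and 5.99 in Chd7 KD and 6.33, 6.21 and 6.32 in Control (log2 fold change -0.27, SE 0.0395, adjusted p = 0.00442 in limma). The groups did not overlap, and in the authors' values the log2 fold change was -1.06 and with an offset of 16 it was -0.53.

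Olig2, needed for the oligodendrocyte lineage, read 11.04, 10.96 and 10.999 in Chd7 KD and 11.39, 11.28 and 11.38 in Control (log2 fold change -0.35, SE 0.0684, adjusted p = 0.0153). Meis2, a TALE homeodomain factor of the striatal primordium, read 6.80, 7.05 and 7.16 in Chd7 KD and 7.24, 7.40 and 7.43 in Control (log2 fold change -0.35, SE 0.0925, adjusted p = 0.0462), and its other probe had a log2 fold change of -0.20. Nkx2-2, a precursor factor and paralog of Nkx2-1, had a log2 fold change of -0.20 (adjusted p = 0.0584). Olig2 no longer passed when Chd7 KD replicates 2 or 3 were left out (adjusted p up to 0.0662) or both arrays numbered 1 (0.0511), under median scaling (0.132) or from the authors' values (0.0586). Meis2 was lost without Chd7 KD replicates 1 or 2 or Control replicates 2 or 3 (up to 0.131), with cyclic loess (0.0556), without the variance trend (0.0873), with the set of gain slopes as a block (0.0821) and in the authors' values (log2 fold change -0.60, 0.105), and Gsx2 passed in each fit that left out 1 array. With the replicate number as a block 5 of the 16 passed, Nkx2-2 and Olig1 being the added ones.

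**Figure D3:**
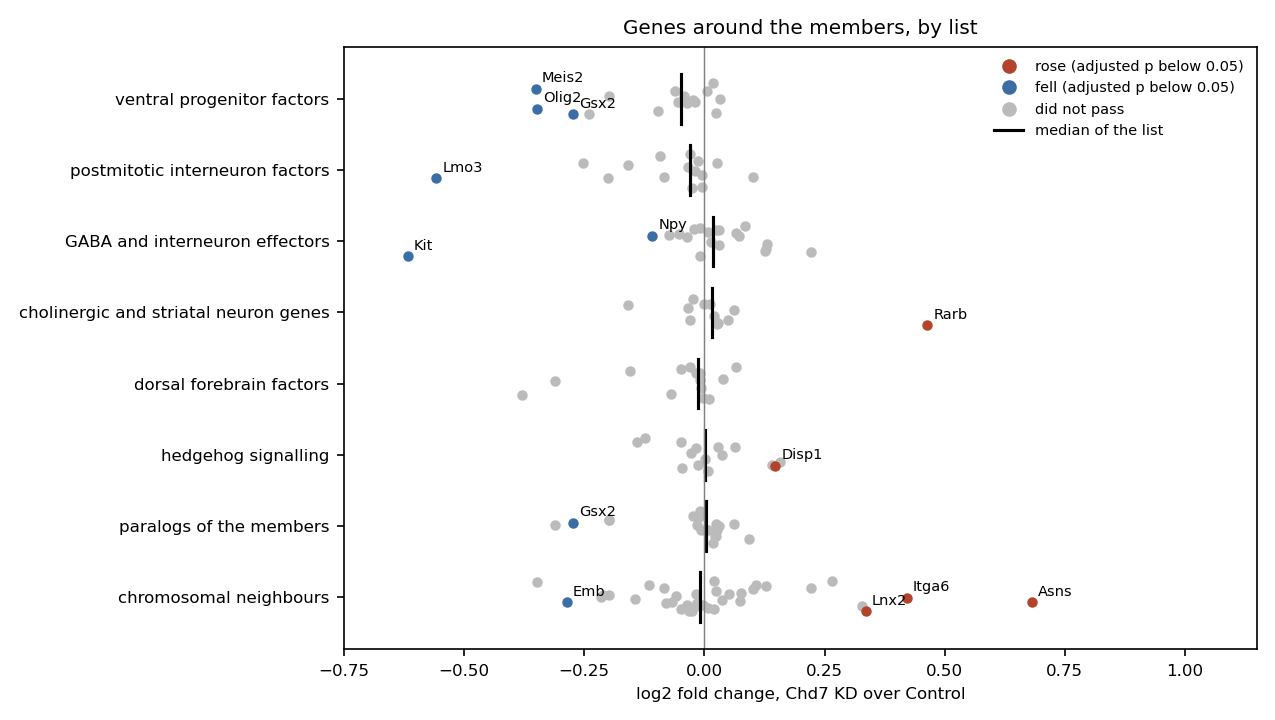
Log2 fold change of Chd7 KD over Control for each tested gene of the 8 lists around the members, with genes that rose in red, genes that fell in blue, the others in grey and the median of each list as a bar. Vertical scatter within a list is only for display. Gsx2, Olig2 and Meis2 lie between -0.27 and -0.35, and Kit and Lmo3 lie farthest to the left.

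Among factors of postmitotic interneurons 15 had a test, of which 1 fell, 14 did not pass and none rose (median -0.03). The one that fell was Lmo3, a LIM-only cofactor gene, at 7.49, 7.54 and 7.36 in Chd7 KD and 8.03, 7.99 and 8.04 in Control (log2 fold change -0.56, SE 0.0642, adjusted p = 0.0019 in limma). It passed in each fit that left out 1 array. Bcl11b, a zinc finger factor of striatal and cortical neurons, had a log2 fold change of -0.16 (adjusted p = 0.0534), Sox6, which acts after Lhx6 in mouse interneurons, one of -0.25 (0.0783), and the ETS factor gene Etv1 one of -0.20 (0.0811). The other Etv1 probe had a log2 fold change of -0.08, with groups that overlapped. In limma Etv1 passed from the authors' values (adjusted p = 0.0367) and without the variance trend (0.0334). With the replicate number as a block 3 passed, Bcl11b and Sox6 among them. Satb1 and Maf, factors of maturing interneurons from the medial ridge, had log2 fold changes of -0.08 and -0.01.

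Of 12 cholinergic and striatal neuron genes, the setting in which Isl1 works, 1 rose and 11 did not pass (median 0.02). Rarb, a retinoic acid receptor gene of the striatum, read 7.54, 7.55 and 7.84 in Chd7 KD and 6.97, 7.22 and 7.34 in Control (log2 fold change 0.46, SE 0.108, adjusted p = 0.0296 in limma). Leaving out any array but Control replicate 3 ended the call for Rarb (adjusted p up to 0.0856), as did the authors' values (0.13), dropping the variance trend (0.0681), the set of gain slopes as a block (0.0567) and leaving out both arrays numbered 1 (0.0641). The next genes by p were Zfp503, a striatal zinc finger gene (log2 fold change -0.16), Chat, which makes acetylcholine (0.05), and Lhx8, a cholinergic LIM-homeodomain gene (-0.02).

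Dorsal forebrain factors mark the opposite side of the same axis. Of 14 tested none passed in limma, with 2 at an unadjusted p below 0.05 and a median of -0.01. Lhx2, a LIM-homeodomain factor of the cortical primordium and paralog of Lhx6, read 9.81, 9.95 and 9.95 in Chd7 KD and 10.32, 10.04 and 10.29 in Control (log2 fold change -0.31, adjusted p = 0.0657). It passed with the replicate number as a block (adjusted p = 0.0418), as did Dmrta2, and without Control replicate 2 (0.0402). Pax6, the homeodomain factor of dorsal progenitors, had a log2 fold change of -0.15 (adjusted p = 0.243), and Gli3 and Neurog2, near the floor, had ones of -0.05 and -0.07. Those of Gli3 and Neurog2 were -0.39 and -0.60 in the authors' values, and neither passed there.

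Sonic hedgehog signalling, which induces Nkx2-1 and patterns the ventral forebrain, was looked at as the pathway upstream. Of 15 genes tested 1 rose and 14 did not pass (median 0.0023). Disp1, which helps release the hedgehog ligand, read 6.44, 6.39 and 6.36 in Chd7 KD and 6.27, 6.20 and 6.28 in Control (log2 fold change 0.15, SE 0.0373, adjusted p = 0.0398 in limma). Leaving out whichever of the 6 arrays ended the call (up to 0.134), and so did median scaling (0.0526), dropping the variance trend (0.0528), the set of gain slopes as a block (0.0875), leaving out both arrays numbered 1 (0.131) and the authors' values (log2 fold change 0.43, 0.106). With an offset of 16 the log2 fold change of Disp1 was 0.26. The pathway targets Gli1, Ptch1 and Hhip had log2 fold changes of 0.03, -0.01 and 0.14. The ligand gene Shh had one of 0.04, and Fgf15, a forebrain growth factor gene, one of -0.05. Ptch1, Shh and Fgf15 lay near the floor (group means 5.81 to 5.90), so a difference in them may not have been detectable. In the authors' values the log2 fold changes of Hhip and Fgf15 were 0.62 and -0.39, and neither passed. With the replicate number as a block Hhip passed beside Disp1.

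Of 20 tested paralogs in the DLX, NK2, LIM-homeodomain, GSX and SP families, 1 fell and 19 did not pass (median 0.0041). The gene that fell was Gsx2. Sp4, a paralog and chromosomal neighbour of Sp8, read 6.33, 6.23 and 6.38 in Chd7 KD and 6.58, 6.42 and 6.53 in Control (log2 fold change -0.20, adjusted p = 0.0504 in limma), and Dlx3 had a log2 fold change of 0.0016. In the authors' values the log2 fold change of Sp4 was -0.54 (adjusted p = 0.136). Sp4 passed with median scaling (0.0361), cyclic loess (0.0436), an offset of 16 (-0.33, 0.0496), the filter on all 6 arrays (0.0482), without Control replicate 2 (0.0386) and with the replicate number as a block (0.00812), and 4 paralogs in all did, with Nkx2-2 and Lhx2.

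The genes next to the members on the chromosomes were taken by position alone, the 3 nearest protein-coding genes on each side in the RefSeq gene order. Of 36 tested neighbours 3 rose, 1 fell and 32 did not pass, 11.1% against 9.65% over all genes, with a median of -0.0091. With the replicate number as a block 11 passed, the added ones being Dnah11, Ndufa8, Pax9, Pdk1, Polr1d, Sdhaf3 and Sp4. Beside Dlx2, the integrin gene Itga6, a laminin receptor subunit, read 7.55, 7.76 and 7.60 in Chd7 KD and 7.27, 7.31 and 7.07 in Control (log2 fold change 0.42, SE 0.0823, adjusted p = 0.0152 in limma). On the other side of the pair Metap1d, a mitochondrial methionine aminopeptidase gene, had a log2 fold change of 0.10 (adjusted p = 0.555), Hat1, a histone acetyltransferase gene, one of -0.0038, and beyond Itga6 the kinase gene Pdk1 one of -0.22 (0.236). None of these 3 passed, and the groups of each overlapped. Itga6 was higher on every knockdown array than on any control array, as were Dlx1 and Dlx2, which this contrast chose. Groups without overlap were found for 29.9% of all genes tested.

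Beyond Dlx5, Asns, the asparagine synthetase gene, rose by 0.68 on the log2 scale (SE 0.108, adjusted p = 0.0061 in limma), with Sdhaf3 (-0.21, adjusted p = 0.0546) and Tac1 (-0.04) between them. Near Gsx1, Lnx2, a ubiquitin ligase gene, rose by 0.34 on the log2 scale (adjusted p = 0.0279), and near Isl1 the gene Emb, for the membrane glycoprotein embigin, fell by 0.29 on the log2 scale (adjusted p = 0.00436). Lnx2 was lost without Chd7 KD replicates 1 or 2 or Control replicates 2 or 3 (up to 0.0969), and Itga6 without Chd7 KD replicate 2 (0.055). Lnx2 was also lost without the variance trend (0.0541). In the authors' values Emb was the 1 neighbour that passed (log2 fold change -0.84), while Lnx2 (0.53, adjusted p = 0.106), Itga6 (0.071) and Asns (0.0695) did not, and with an offset of 16 Emb had a log2 fold change of -0.51.

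**Figure D4:**
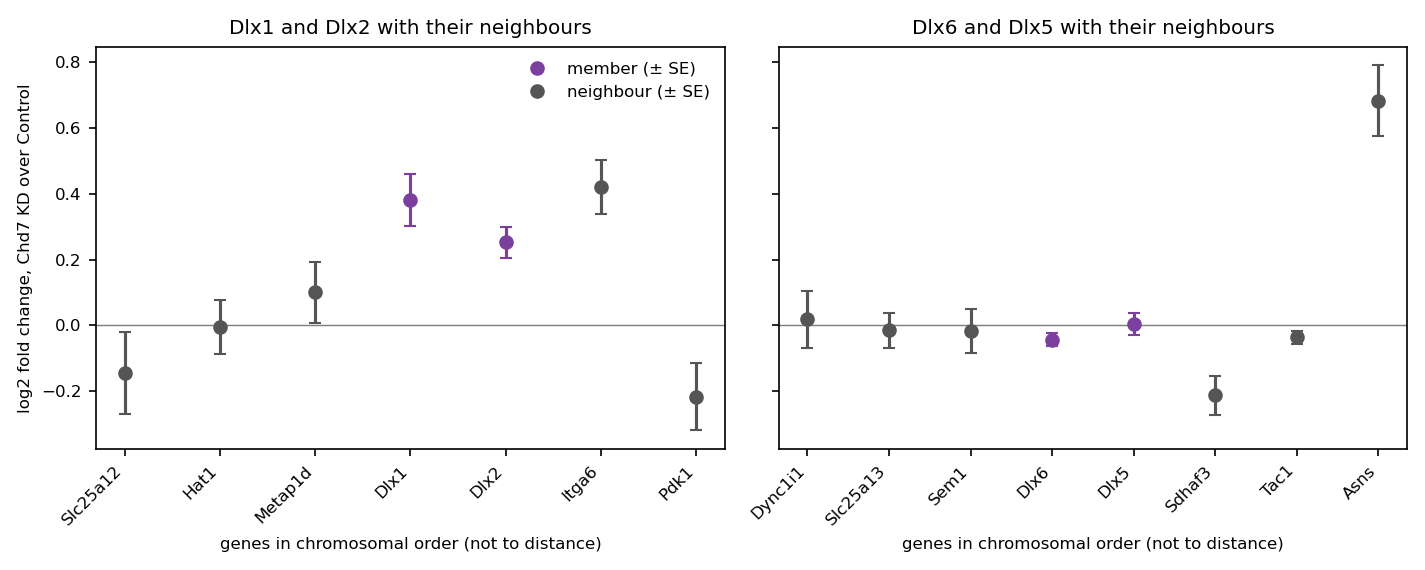
Log2 fold change with SE of the DLX pairs (purple) and their tested neighbours (grey) in chromosomal order, not to distance. Dlx1, Dlx2 and Itga6 stand at 0.25 to 0.42 at the left, while Dlx6 and Dlx5 lie near 0 at the right and Asns stands at 0.68.

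Genes with profiles like those of the members were found by the root mean square difference of log2 values, each centred on its mean, over the 6 arrays. For Lhx6, the member probe with the highest mean signal, the 5 nearest of 17390 genes were Olfr645, Gzmn, Hrc, Etfbkmt and Dnah1, at 0.0087 to 0.012, none of which passed. The same was done for Dlx1 and Dlx2 after their values were seen. Nearest to Dlx1 were Ssr1, Sumf1, Sez6, Vamp3 and Rnf145 (0.020 to 0.041), and Dlx2 was number 220 by nearness (0.108). Nearest to Dlx2 were 4931414P19Rik, Dalrd3, Elobl, Azin2 and Mup2 (0.013 to 0.021), and Dlx1 was number 2139.

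The summed markers of neurons and of precursors were lower in Chd7 KD, and the sums of the other lists overlapped between the groups. These are bulk samples, in which fewer cells of a type and less RNA per cell cannot be told apart. The summed authors' values of the neuronal markers were 1262 to 1694 in Chd7 KD and 2146 to 2816 in Control, and 6 of 13 fell, among them Dcx (log2 fold change -0.71), Elavl4 (-0.60) and Gap43 (-0.84). Of the 12 precursor markers, those of the sampled cells themselves, 5 fell: the PDGF receptor gene Pdgfra (log2 fold change -1.36), Lhfpl3 (-0.96), Sox10 (-0.52), Cspg4 (-0.48) and Olig2 (-0.35). The 12 summed to 9203 to 11076 in Chd7 KD and 12235 to 13612 in Control. The interneuron markers summed to 261 to 277 in Chd7 KD and 262 to 293 in Control, with 9 of 10 detected, Vip not, and Sst and Slc32a1 leading. The part of these cells in the Dlx1 and Dlx2 values was not tested.

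The remaining marker lists overlapped between the groups. Glutamatergic markers summed to 18 to 20 in Chd7 KD and 18 to 21 in Control, led by Neurod6 and Neurod2, with Slc17a6 and Tbr1 not detected. Neural progenitor markers summed to 50293 to 53186 in Chd7 KD and 46052 to 52954 in Control, led by Fabp7 and Vim. Fabp7 held most of that sum, at 36731 to 41538 in Chd7 KD and 32352 to 39464 in Control, and without it the sums were 11648 to 13562 in Chd7 KD and 13490 to 14327 in Control. In this list 1 of 7 fell, the Notch effector gene Hes5 (log2 fold change -0.78, adjusted p = 0.00313 in limma). Astrocyte markers summed to 8177 to 9057 in Chd7 KD and 8849 to 9369 in Control, led by Aldoc and Slc1a3. Microglial markers summed to 82 to 86 in Chd7 KD and 76 to 87 in Control, led by Csf1r and Aif1, with Itgam and Tmem119 not detected. Endothelial and mural markers summed to 60 to 70 in Chd7 KD and 56 to 67 in Control, led by Pdgfrb and Kdr, with Cldn5 and Pecam1 not detected.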

How the data were processed

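Total RNA from 6 samples was amplified as amino allyl RNA, coupled to Cy5 and hybridised to 1 one-colour array each, per the labels' protocols. Per the file headers, scans at 635 nm and 3 gains were merged by a least-squares fit, and the intensity used is the deposited spot median. No source used here names the scanner software. The deposited local background intensity tracked the spot signal (correlation of logs 0.957 to 0.981) and was not subtracted. The authors' processed values, handled as a score, were deposited as whole numbers. Comparison with the intensities showed each column to equal spot signal minus roughly the blank mean, rescaled, with 99.995% of residuals within 0.6, and no source states this.

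Intensities were corrected with normexp (offset 50, no local background), quantile normalized over gene probes and fitted in limma 3.58.1 (R 4.3.3, lmFit and eBayes with a trend). Benjamini-Hochberg adjustment ran over 17390 genes. A probe was tested if at least 3 arrays read it above the blank mean plus 2 SD, and 1 probe marked bad at each gain was left out. The brightest probe stood for a gene. The platform annotation gave the symbols (20690 probes with 1 symbol, 2783 with none, 0 with several), and 20556 matched RefSeq by Entrez ID. The fit was tested on simulated data. Figures were drawn with matplotlib 3.10.9.

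The planned count of members past the threshold is not given, since this contrast chose them. The members, the lists and the rule for named genes were chosen with earlier results of these data known. Named genes were all members, Chd7, the genes of each list that passed and at least the 4 with the smallest p, the neighbours that passed, the 5 nearest profiles and the brightest 2 of each marker list. Some further list genes are examples picked with their values in view. Arrays of the same replicate number deviated together from their group means (correlations 0.36, 0.38 and 0.23), so the numbers may pair the samples. All other correlations were below 0, which the centring on group means favours by itself. This pairing is inferred from the data, and the labels do not state it. With the number as a block 2580 genes passed, against 1678 without it. The headers' gain slopes fell into 2 sets of 3 arrays, used here as a possible batch, though no header names one. Alternatives were other background corrections, normalizations, filters, variance models and blocks, the authors' values, each probe by itself, a threshold of 0.1 and leaving out arrays.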

Additional observations from a re-analysis of the deposited data

How the results depend on the processing

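Across all genes 1678 passed. The count was 907 in the authors' values, 2580 with the replicate number as a block, 1160 with the slope set as a block, 1233 with median scaling, 800 without both arrays numbered 1, 2688 at an adjusted p below 0.1, and 39 within each set of arrays with like gain slopes, where 2 arrays stand against 1 and the lone array is assumed to vary like the others. Leaving out 1 array at a time gave 750 to 1451. The cause of these shifts was not tested. Where arrays were left out, their smaller number was not separated from which arrays were dropped.

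Of the ventral progenitor factors 3 passed, 1 in the authors' values, 5 with the replicate block, 0 within either slope set, and 1 to 3 with 1 array left out. Of the postmitotic factors 1 passed, 2 in the authors' values, without the variance trend or with array weights, 3 with the replicate block, 4 at the looser threshold, 0 within either slope set, and 1 to 2 with 1 array left out. Of the interneuron effectors 2 passed, 1 without the variance trend, 0 and 1 within the lower and higher slope sets, and 1 to 2 with 1 array left out. Of the cholinergic and striatal genes 1 passed, 0 in the authors' values, without the variance trend, with the slope set as a block, within either slope set or without both arrays numbered 1, and 0 to 1 with 1 array left out.

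Of the dorsal factors 0 passed in limma (2 at an unadjusted p below 0.05), 2 with the replicate block, 1 at the looser threshold, and 0 to 1 with 1 array left out. Of the hedgehog genes 1 passed, 2 with the replicate block, 0 with median scaling, in the authors' values, without the variance trend, with the slope set as a block, within either slope set, without both arrays numbered 1 or with any 1 array left out. Of the paralogs 1 passed, 2 with cyclic loess, an offset of 16, the filter on all 6 arrays, median scaling, no variance trend or array weights, 4 with the replicate block or at the looser threshold, 0 within either slope set, and 1 to 3 with 1 array left out. Of the neighbours 4 passed, 1 in the authors' values, 7 with array weights, 11 with the replicate block, 9 at the looser threshold, 0 within either slope set, and 2 to 5 with 1 array left out.

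The replicate block ended none of the calls in these lists and added those named in the report. No result turned its direction past a threshold. Dlx1 ranged from 0.30 to 0.44 and Dlx2 from 0.22 to 0.29 with 1 array left out, and over the other settings from 0.34 to 0.63 and from 0.17 to 0.59. Signals of Nkx2-1, Isl1 and Sp8 lay close to the blank spots, so a difference in these genes may not have been detectable here.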
